A study of Mus musculus with 6 samples.

Results

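Imprinted genes are expressed mainly from 1 of the 2 parental copies, and many of them control the growth of the embryo, the placenta and muscle. The 10 imprinted growth-control genes described here, out of 21485 genes on both feature lists of the series, were Mest, Peg3, Plagl1, Cdkn1c, Grb10, Dlk1, Ndn, Sgce, Zim1 and Phlda2. They were chosen by name. The samples were cultures of mouse muscle-derived stem/progenitor cells (MDSPCs), which adhere slowly to collagen and were enriched from digested skeletal muscle by serial replating. There were 2 groups, 3 populations derived from young and 3 derived from old animals, all kept in proliferation medium with serum and chick embryo extract. The labels give no genotype, strain, sex or age in weeks, and do not say how many mice a population came from, so p-values measure the spread between these populations. Each population is 1 sample of droplet-based 3′ single-cell RNA sequencing.

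A methylated control region set in the egg or the sperm decides which parental copy of an imprinted gene is used, and it usually governs several neighbouring genes at once. Mest, Peg3, Plagl1, Dlk1, Ndn and Sgce are known to be used from the paternal copy, and Cdkn1c, Grb10, Zim1 and Phlda2 from the maternal copy in most tissues. In muscle, Peg3 and Mest are known from satellite cells and regenerating fibres, and Cdkn1c as a cell cycle inhibitor of differentiating myoblasts. The counts used here do not separate the parental copies.

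Between 8673 and 12541 cells per sample were kept, with median depths of 13001 to 19951 unique molecular identifiers (UMIs, tags that count each RNA molecule once). Young replicate 1 and old replicate 1 were counted on a list of 21849 features and the other 4 samples on one of 32285, so a difference between these 2 samples and the other 4 cannot be told apart from the list. All 10 myogenic markers examined were on both feature lists. Their summed level was 456, 2581 and 397 CPM (counts per 1000000 UMIs) for young replicates 1, 2 and 3, while old replicates 1, 2 and 3 had 429, 2038 and 3989 CPM. Of the 10, 5 were at 10 CPM or more in all 6 samples, and 7 were in young replicate 3. In that sample no Pax7 UMI was found in 10631 cells thinned at random to equal depth. Pax7 UMIs were found in every other sample. A cell without a Pax7 UMI may still hold Pax7 RNA. The fibro-adipogenic markers Lum and Dpt, the endothelial markers Cdh5, Kdr and Emcn, and the blood markers Ptprc, Adgre1 and Lyz2 stayed under 1 CPM in all 6 samples. Other markers of connective tissue cells were present. The 7 fibro-adipogenic markers summed to between 206 and 434 CPM, with Col3a1 and Gsn at 10 CPM or more in all 6 samples, and the 3 tenocyte markers to at most 304 CPM, with Scx at 10 CPM or more in all 6. Their part in the results was not tested. In young replicate 2 the summed endothelial list reached 59.4 CPM, with 1 of its 5 markers at 10 CPM or more. Elsewhere that list summed to at most 1.72 CPM. The 5 macrophage and blood markers summed to between 1.40 and 8.20 CPM, and the 3 Schwann cell markers to at most 1.90 CPM. The 4 smooth muscle and pericyte markers summed to at most 10.9 CPM, in young replicate 3, where 1 of them was at 10 CPM or more. At most 0.369% of the cell barcodes of a sample were shared with any other sample.

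Several of the 10 imprinted genes spread widely between single populations, though Sgce did not. None passed the main test between old and young (edgeR), while an alternative test (DESeq2) called Mest. CPM here is unscaled and taken over all kept cells of a sample. Peg3, Mest, Plagl1, Ndn, Zim1 and Sgce reached 10 CPM in at least 1 sample, and Cdkn1c, Grb10, Phlda2 and Dlk1 never did. A gene was called all-or-none where it was under 1 CPM in a sample and at 10 CPM or more in another. This held for 2 of the 6 genes that reached 10 CPM, Mest and Zim1, against 5.65% of the 9287 genes of the series that reached that level. The highest level was 16 or more times the lowest in 3 of them, Mest, Ndn and Zim1, against 7.74% of the 9287 genes. The median of this ratio was 14.6 over the 6 genes, 2.08 over 29 other imprinted genes at that level and 2.19 over all 9287 genes. The members were chosen with results of these data known, so these shares and medians are a description. With limits of 0.5 and 20 CPM no member was all-or-none, because the lowest levels of Mest and Zim1 lay between 0.5 and 1 CPM. Each all-or-none call rested on 1 sample of the shorter list. Mest was not called without young replicate 1, nor Zim1 without old replicate 1, which left 1 member in each case. Of all genes that reached 10 CPM, 5.02% and 4.95% were then all-or-none. Over the 4 samples on the longer list, 0 members were all-or-none, and Mest and Ndn kept a range of 16-fold or more. Of the 9001 genes that reached 10 CPM there, 3.88% were all-or-none and 5.40% had that range. The median ratio fell to 9.002 without old replicate 3, where all genes gave 2.08, and to 5.03 over the 4 samples on the longer list, where all genes gave 1.78. These values were added after seeing the data.

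**Figure D1:**
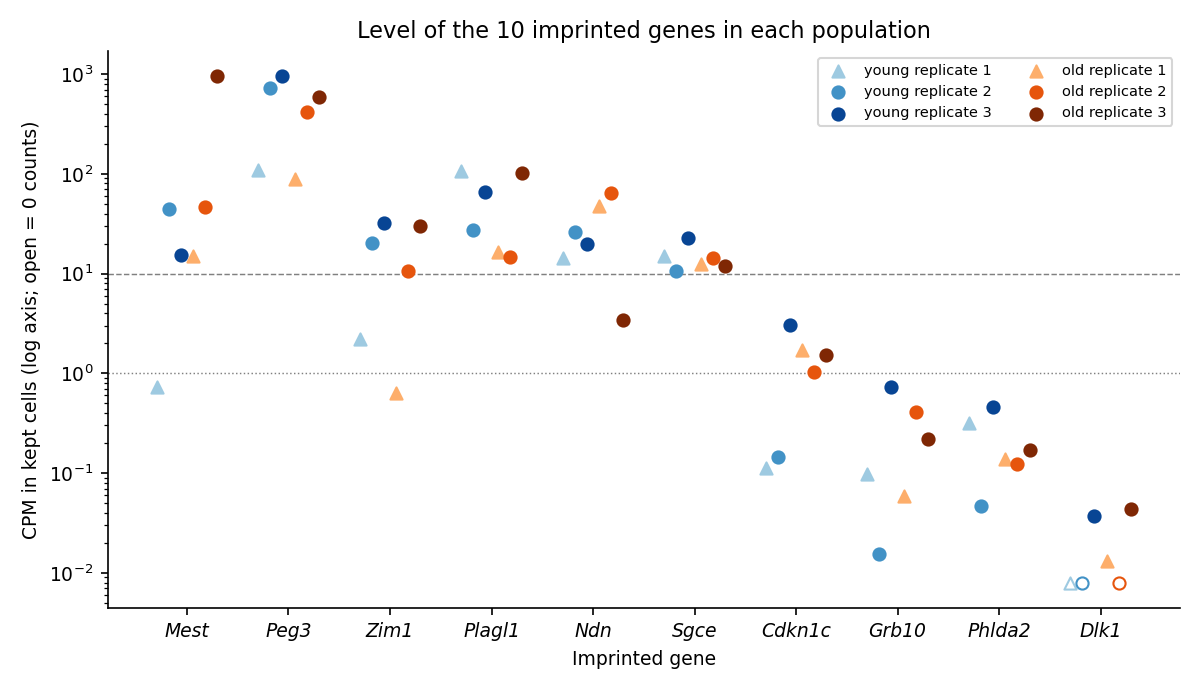
Levels of the 10 imprinted genes (x axis) in CPM on a log axis, 1 point per population, with triangles for the 2 samples on the shorter feature list and open symbols for 0 counts. The lines mark 1 and 10 CPM, and Mest spreads from 0.734 CPM in young replicate 1 to 951 CPM in old replicate 3.

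Mest (ENSMUSG00000051855; chr6:30723547-30748465, plus strand, GRCm38) encodes an enzyme-like protein of the alpha/beta hydrolase fold and is a marker of mesoderm. Its level was 0.734, 44.3 and 15.2 CPM for young replicates 1, 2 and 3, while old replicates 1, 2 and 3 had 15.1, 46.8 and 951 CPM. Old replicate 3 thus stood 20.3 times above the next sample, and young replicate 1, with 98 Mest counts in 8673 cells, 20.6 times below its nearest. The other 4 samples formed 2 pairs, at 15.1 and 15.2 CPM and at 44.3 and 46.8 CPM, and the groups overlapped.

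The windows below, from 250 bases before to 50 after an annotated start, are from RefSeq (GRCm38.p6), which had entries for 8 of the 10 genes. They are shown for Mest, Zim1 and Ndn, whose levels differed most between populations among the members that reached 10 CPM, and for Peg3, with CG dinucleotides, the sites of DNA methylation, in capitals. In Peg3 the capitals also mark GGGGCCCC, a site of the zinc finger protein ZAC1 that Plagl1 encodes. The motif reads the same on both strands, was found in 1.08% of 32851 windows and in Peg3 alone among those of the members. Mest has further annotated starts, and 3′ counting does not tell which start was used. The windows are Mest at chr6:30737800-30738099 (plus strand), Peg3 at chr7:6730370-6730669 (minus strand), Zim1 at chr7:6696383-6696682 (minus strand) and Ndn at chr7:62348027-62348326 (plus strand).
Mest: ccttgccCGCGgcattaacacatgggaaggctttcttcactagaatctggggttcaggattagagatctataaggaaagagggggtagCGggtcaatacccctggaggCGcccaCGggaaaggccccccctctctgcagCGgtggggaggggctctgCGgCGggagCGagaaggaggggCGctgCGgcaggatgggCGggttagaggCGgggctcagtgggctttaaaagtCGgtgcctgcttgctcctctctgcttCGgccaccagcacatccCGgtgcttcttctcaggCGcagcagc
Peg3: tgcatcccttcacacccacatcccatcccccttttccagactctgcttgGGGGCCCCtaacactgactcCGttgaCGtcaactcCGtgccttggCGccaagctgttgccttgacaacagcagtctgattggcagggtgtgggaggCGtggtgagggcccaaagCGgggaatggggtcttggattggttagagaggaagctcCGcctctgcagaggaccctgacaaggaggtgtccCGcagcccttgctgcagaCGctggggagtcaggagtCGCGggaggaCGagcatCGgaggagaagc
Zim1: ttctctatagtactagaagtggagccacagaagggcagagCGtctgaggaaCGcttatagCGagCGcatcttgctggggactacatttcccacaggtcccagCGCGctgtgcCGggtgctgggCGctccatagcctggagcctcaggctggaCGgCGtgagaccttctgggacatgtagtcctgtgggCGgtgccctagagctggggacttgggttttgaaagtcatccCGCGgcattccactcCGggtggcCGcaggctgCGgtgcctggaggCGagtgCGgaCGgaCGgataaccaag
Ndn: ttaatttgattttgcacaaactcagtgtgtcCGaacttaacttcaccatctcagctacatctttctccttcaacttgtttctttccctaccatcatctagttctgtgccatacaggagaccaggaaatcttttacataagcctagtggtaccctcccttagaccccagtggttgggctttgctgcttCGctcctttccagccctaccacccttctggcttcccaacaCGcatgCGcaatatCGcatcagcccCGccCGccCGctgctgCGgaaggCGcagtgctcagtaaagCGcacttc
The Mest window held 17 CG dinucleotides, the Peg3 window 13, the Zim1 window 20 and the Ndn window 11, against a median of 7 over all windows. As many or more were held by 31.4%, 37.9%, 26.5% and 41.4% of all windows. The windows of Plagl1 and Phlda2 each held 26 and that of Dlk1 9, while the 2 Grb10 starts held 45 and 9 and another Mest start held 8. Methylation itself was not measured here.

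Cells were thinned at random to 5000 UMIs to compare the share of cells with a Mest UMI. That share was 86.7% in old replicate 3 (Wilson 95% interval 86.1% to 87.3%), 15.7% in young replicate 2 and 15.1% in old replicate 2. It was 6.19% in young replicate 3, 5.56% in old replicate 1 and 0.391% in young replicate 1. Without thinning the share in old replicate 3 was 91.4% and in young replicate 1 0.911%. It was then 33.7% in young replicate 2, 32.6% in old replicate 2, 15.1% in young replicate 3 and 11.8% in old replicate 1. A Mest UMI was thus found in most cells of old replicate 3, and at 5000 UMIs in fewer than 1 cell in 6 of the other 5 samples. The share depends on depth, and a cell without a Mest UMI may still hold Mest RNA. These intervals cover counting error only, and no cell class that should lack Mest was available as a measure of free RNA. An even spread of the counts over cells of their depth would give more cells with Mest than were found. The observed number without thinning was 0.642, 0.661, 0.596 and 0.550 of the even-spread number in young replicates 2 and 3 and old replicates 1 and 2. In old replicate 3 an even spread would give nearly every cell, so this ratio is not compared there.

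**Figure D2:**
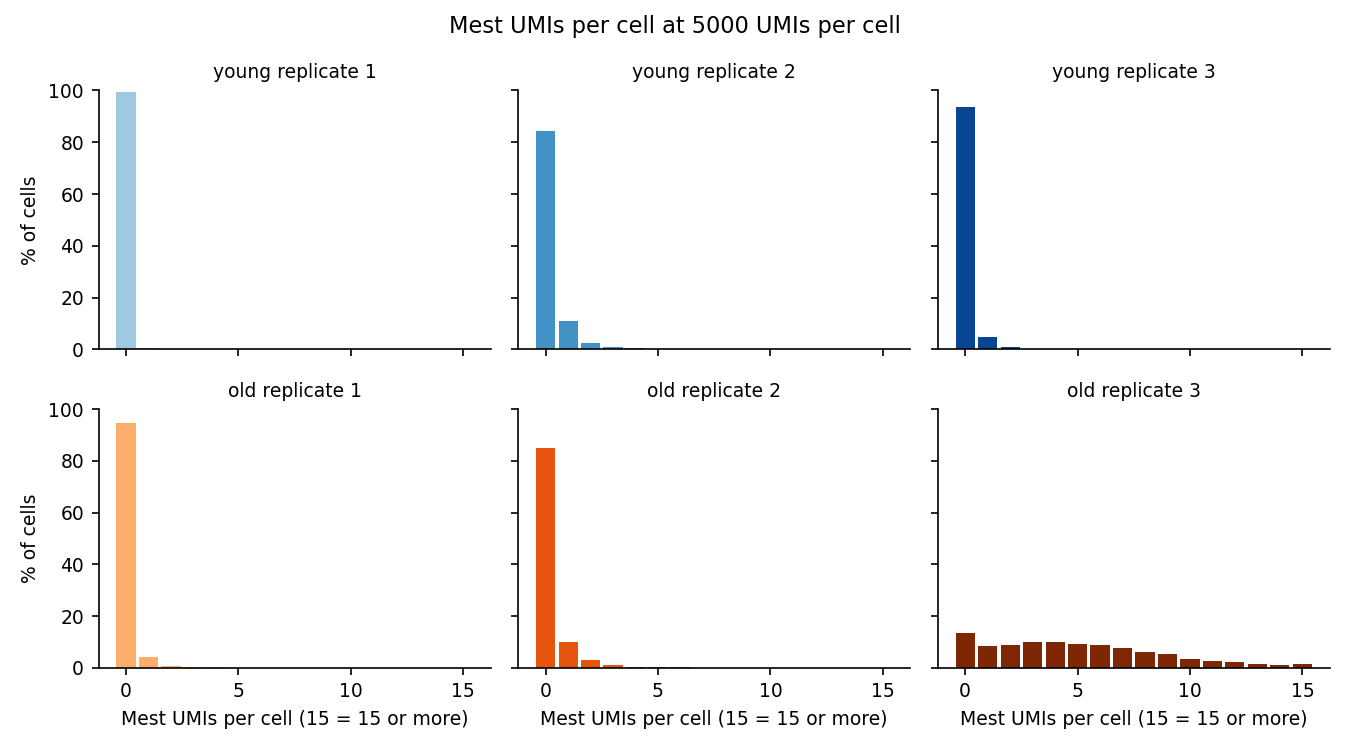
Share of cells (y axis, percent) by the number of Mest UMIs per cell (x axis) at 5000 UMIs per cell, 1 panel per population. Most cells of 5 populations had 0 Mest UMIs, against 13.3% of the cells of old replicate 3, whose counts per cell were broadly spread.

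Copg2, a coat protein gene that overlaps the end of Mest by 912 bases, showed no such spread. It had 20.9, 30.6 and 35.7 CPM among young populations and 17.5, 36.5 and 30.9 CPM among old ones. Copg2 in old replicate 3 was thus within the range of the other samples where Mest was far above it.

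Peg3 (ENSMUSG00000002265; chr7:6703892-6730431, minus strand) encodes a large zinc finger protein linked to p53 and TNF signalling and to muscle stem cells. It had the most UMIs of the 10 genes in every sample but old replicate 3, where Mest had more, although Plagl1 came close in young replicate 1. Its level was 109, 718 and 955 CPM among young populations and 89.3, 420 and 583 CPM among old ones, a range of 10.7-fold. Both samples on the shorter list lay below all 4 on the longer list, as did 16.5% of the 9287 genes. Mest and Zim1 shared this order, Mest only just, with 15.1 CPM in old replicate 1 and 15.2 CPM in young replicate 3.

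Usp29, which encodes a deubiquitinase and starts 0.147 kb from Peg3 on the other strand, lay at 3.67, 27.1 and 49.0 CPM among young populations and 5.19, 14.7 and 29.6 CPM among old ones. Zim1 (ENSMUSG00000002266; chr7:6671269-6696450, minus strand), the maternally used zinc finger gene 7.44 kb beyond Peg3, lay at 2.19, 20.1 and 32.1 CPM among young populations and 0.641, 10.5 and 30.3 CPM among old ones. All 3 genes were highest in young replicate 3 and lowest in young replicate 1 and old replicate 1. Zim1 differed from the other two in old replicate 3, where it nearly reached its level in young replicate 3. The median level of chromosome 7 genes moved by at most 0.07 on the log2 scale in any sample.

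**Figure D3:**
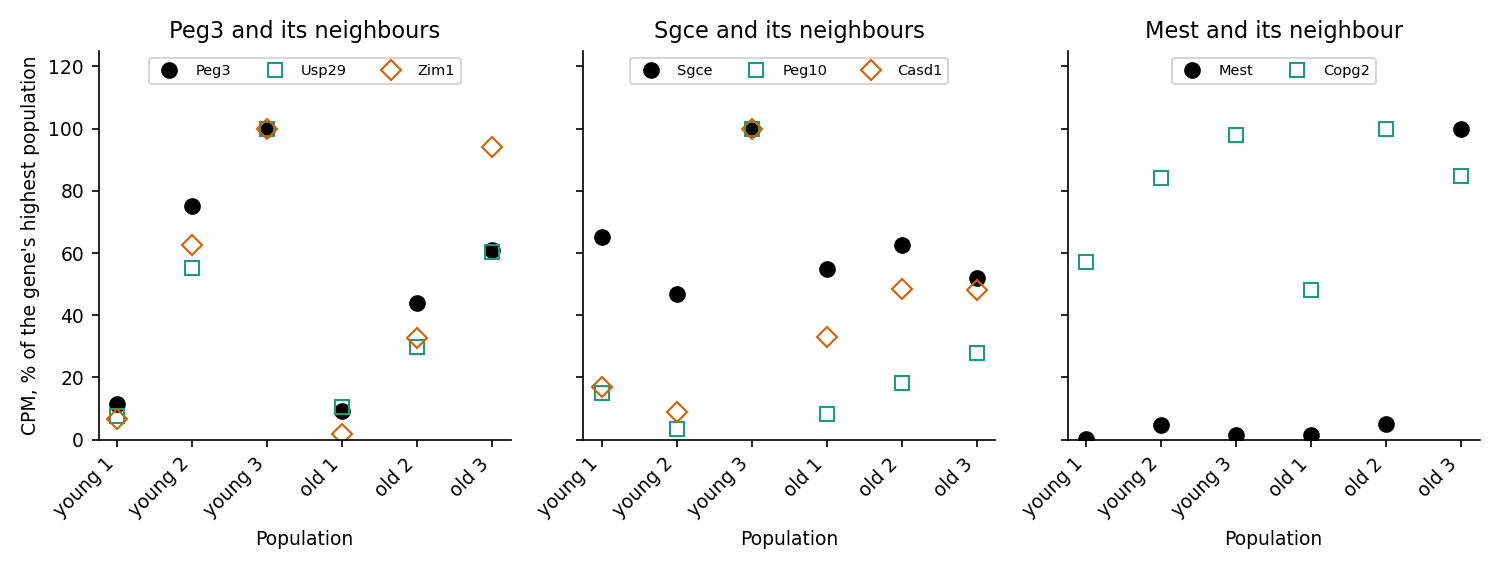
Levels of Peg3, Sgce and Mest and of genes beside them in each population (x axis), as a percentage of the highest population of each gene (y axis). Peg3, Usp29 and Zim1 peak together in young replicate 3, as do Sgce, Peg10 and Casd1, while Copg2 shows nothing like the Mest value of old replicate 3.

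The share of thinned cells with a Peg3 UMI was 91.0% and 95.4% for young replicates 2 and 3, while old replicates 2 and 3 had 76.4% and 88.5%. It was 31.8% in young replicate 1 and 22.0% in old replicate 1. In these 2 samples the cells with Peg3, without thinning, numbered 0.665 and 0.488 of what an even spread would give. In the other 4 an even spread would give nearly every cell, so the ratio is not compared with theirs. Peg3 had up to 15 UMIs in a thinned cell of young replicate 1.

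Cells with a Peg3 UMI were set against cells without one in each sample, a split chosen after values were seen. Of 6242 genes at 10 CPM or more in all samples, 29.5% were higher in Peg3 cells in 6 of 6 samples and 9.48% were lower. Usp29, Mest, Plagl1 and Zim1 were each higher in 6 of 6 samples, with counting intervals that did not overlap in any sample. Of these 4, only Plagl1 is among the 6242 genes, since the others fell below 10 CPM in a sample. The intervals pool the cells of a sample and cover counting error only, and the 29.5% does not take their overlap into account. Usp29 was at 11.0 against 1.84 CPM in young replicate 1 and at 16.4 against 2.41 CPM in old replicate 1. Zim1 was at 5.59 against 1.46 CPM and 2.66 against 0.155 CPM in the same samples, the last value from 6 UMIs. In young replicates 2 and 3 and old replicates 2 and 3 the ratios were smaller. They were 1.96 to 2.95 for Usp29 and 1.76 to 2.57 for Zim1. The myogenic regulator Myod1 was at 129 against 26.4 CPM in young replicate 1 and at 207 against 29.9 CPM in old replicate 1. In the other 4 samples its ratio was smaller, 1.17 to 1.95. Ndn did not share this direction and was higher in Peg3 cells in 2 of 6 samples.

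**Figure D4:**
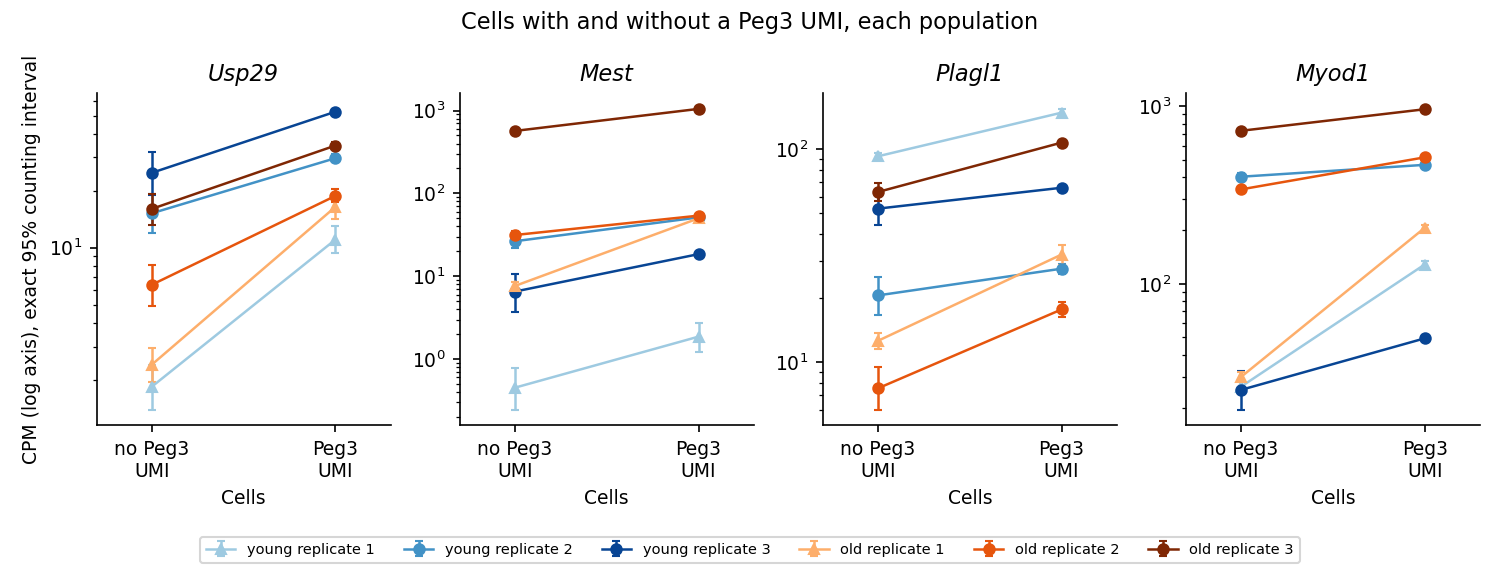
Levels of Usp29, Mest, Plagl1 and Myod1 (CPM, log axis, exact 95% Poisson intervals for counting error) in cells with and without a Peg3 UMI (x axis), 1 line per population. All lines run upward. Among the Myod1 lines, those of young replicate 1 and old replicate 1 are the steepest.

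Plagl1 (ENSMUSG00000019817; chr10:13060504-13131694, plus strand) encodes ZAC1, a zinc finger factor that restrains growth and acts on other imprinted genes. It was at 107, 27.4 and 65.6 CPM among young populations and 16.3, 14.6 and 103 CPM among old ones. High and low samples occurred in both groups, and young replicate 1, low in Mest and Peg3, was the highest for Plagl1. The share of thinned cells with Plagl1 was 37.1%, 10.8% and 25.7% among young populations and 6.82%, 6.40% and 36.3% among old ones.

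Ndn (ENSMUSG00000033585; chr7:62346569-62350262, plus strand) encodes necdin, a growth suppressor that favours myogenic differentiation. It was at 14.2, 26.2 and 19.6 CPM among young populations and 47.5, 63.7 and 3.44 CPM among old ones. Old replicate 3, the highest for Mest, was the lowest for Ndn and the other old samples were the highest. A Ndn UMI was found in 6.11%, 11.3% and 9.33% of thinned cells among young populations and in 19.4%, 27.0% and 0.838% among old ones. Without thinning, 0.437 of the cells that an even spread gives held Ndn in old replicate 3, against 0.842 or more elsewhere. In the 102 thinned cells of old replicate 3 with a Ndn UMI, Mest was at 212 against 999 CPM in the other cells. Peg3 was at 106 against 616 CPM, Plagl1 at 17.6 against 103 CPM and Myod1 at 145 against 942 CPM in the same split, which was chosen after values were seen. The few Ndn cells of this population thus had lower levels of Mest, Peg3, Plagl1 and Myod1. In old replicate 2, where Ndn was highest, the cells with and without Ndn had 429 and 432 CPM of Peg3. Mest was at 42.9 against 50.7 CPM there. Over the 6 samples, Mest, Peg3, Plagl1 and Myod1 were each lower in the cells with Ndn in 5 and higher in 1. The lower values had counting intervals that did not overlap in 4, 3, 1 and 2 samples, in the same order.

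Sgce (ENSMUSG00000004631; chr6:4674350-4747207, minus strand) encodes epsilon-sarcoglycan, a membrane protein of the dystrophin-associated complex. It was the steadiest member, with 14.9, 10.7 and 22.9 CPM among young populations and 12.5, 14.3 and 11.9 CPM among old ones, a range of 2.14-fold. The highest sample was young replicate 3. Peg10, a retrotransposon-derived gene that starts 0.099 kb away, was also highest there, at 67.7 CPM against 2.43 to 18.9 CPM in the other samples. Casd1 next to them was at 40.7 CPM there and at 3.61 to 19.8 CPM elsewhere. Among the other listed neighbours of Sgce that reached 10 CPM, Ppp1r9a (32.7 CPM) and Asb4 (116 CPM) were also highest there. Pon2 and Pon3 were not, with 27.3 and 14.6 CPM there and 29.5 and 20.8 CPM in old replicate 2. The median of all chromosome 6 genes in young replicate 3 was higher by 0.32 on the log2 scale, and its part in these levels was not tested.

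The other 4 genes stayed at or below 3.04 CPM in every sample. Cdkn1c (ENSMUSG00000037664; chr7:143458339-143461050, minus strand) encodes the cell cycle inhibitor p57. It was at 0.112, 0.145 and 3.04 CPM among young populations and 1.71, 1.04 and 1.54 CPM among old ones, so that young replicates 1 and 2 were the low ones. Phlda2 (ENSMUSG00000010760; chr7:143501545-143503150, minus strand), a placental growth restrictor 40.5 kb away, had 42, 9 and 87 counts among young populations and 21, 22 and 31 counts among old ones. Grb10 (ENSMUSG00000020176; chr11:11930508-12038683, minus strand), an adaptor that dampens insulin and IGF receptor signalling, had 13, 3 and 139 counts among young populations and 9, 73 and 40 counts among old ones. The median of chromosome 11 genes in old replicate 2 was higher by 0.30 on the log2 scale. Dlk1 (ENSMUSG00000040856; chr12:109452823-109463336, plus strand), a Notch-related surface protein of growing muscle, had 0, 0 and 7 counts among young populations and 2, 0 and 8 counts among old ones. In young replicate 1 a Dlk1 UMI was found in 0 of 8443 thinned cells, which allows a share of up to 0.0355% of cells with a UMI at this depth and sets no limit on cells expressing Dlk1.

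Between old and young populations, no member passed the main test, by edgeR. By edgeR's quasi-likelihood test over 14512 genes, 0 of the 9 members that could be tested were called and 2 had an unadjusted p under 0.05. Dlk1 was too low for the test. Over all genes edgeR called 0.00689% higher and 0% lower in old, and 3.53% had an unadjusted p under 0.05. The groups did not overlap for 6.06% of genes and for 0 members. Mest averaged 20.1 ± 22.2 CPM among young populations and 338 ± 531 CPM among old ones (SD, n = 3 each). By edgeR, Mest had a log2 fold change of 4.11 with an SE of 1.19 (unadjusted p = 0.0153, adjusted p = 1.00), and of 2.13 without old replicate 3. DESeq2 on the same sums called Mest higher, with an adjusted p of 0.00550, and no other member; over all genes it called 1.23% higher and 0.269% lower. Over all alternatives, the adjusted p of Mest ranged from that value to 1.

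Peg3 averaged 594 ± 436 CPM among young populations and 364 ± 252 CPM among old ones (SD, n = 3 each). By edgeR, Peg3 had a log2 fold change of -0.66 with an SE of 0.25 (unadjusted p = 0.0427, adjusted p = 1.00), and the groups overlapped. The remaining 7 tested members had log2 fold changes from -0.96 (Phlda2, SE 0.92) to 0.90 (Cdkn1c, SE 1.43). Cdkn1c became -0.17 without young replicate 1 or old replicate 1, Phlda2 0.14 and Grb10 1.67 without young replicate 3, Ndn -0.78 without old replicate 2, and Plagl1 0.48 without young replicate 1 or old replicate 1. The median over the 9 members was -0.44, against -0.01 over all genes, with 3 of 9 above 0. The median size of the change was 0.81 over the members and 0.26 over all genes.

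Other imprinted genes were taken from a list of 66, of which 54 were on both feature lists and 42 could be tested. Of these, edgeR called 0, with 1 at an unadjusted p under 0.05 (Asb4), and DESeq2 called 1, also Asb4 (log2 fold change -4.90, SE 1.11, adjusted p = 0.00140). Of the 29 other imprinted genes that reached 10 CPM, 4 were all-or-none, against the 5.65% of all genes at that level. They were the growth factor gene Igf2 and Ddc, Asb4 and Gatm. Ddc was under 1 CPM only in young replicate 1 (0.374 CPM) and old replicate 1 (0.330 CPM), both on the shorter list, and reached at most 10.5 CPM. Gatm was under 1 CPM only in young replicate 1, at 0.794 CPM, and Asb4 only in old replicate 2, at 0.940 CPM. Igf2 was at 0.344, 0.0517 and 85.3 CPM among young populations. Old replicates 1, 2 and 3 had 0.00661, 15.7 and 76.7 CPM of Igf2, the first being 1 count. Igf2 was therefore high in young replicate 3 and old replicate 3, the samples where Zim1 was also highest. Asb4, which lies 636 kb from Sgce, was at 6.94, 59.2 and 116 CPM among young populations and 9.51, 0.940 and 1.07 CPM among old ones. Like Sgce it was highest in young replicate 3, but it did not otherwise follow Sgce, which varied little.

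Peg3 was slightly higher in cells scored as G1 than in cells scored as S or G2/M by standard gene sets. In young replicates 1, 2 and 3 it was at 161, 827 and 1050 CPM in G1 against 95.3, 652 and 950 CPM in the cycling cells. Old replicates 1, 2 and 3 had 120, 489 and 647 CPM against 79.8, 333 and 586 CPM. All 6 samples had the higher level in G1. The mean log2 ratio of CPM + 1 was 0.42 ± 0.25 (SD, n = 6; two-sided exact sign-flip permutation test, p = 0.03125, the smallest this design can give). Adjusted over 6242 genes the p was 0.0605, which did not pass 0.05, and 25.0% of those genes were higher in G1 in 6 of 6 samples. This was the smallest adjusted p of any gene, shared by 3225 genes, so 0 of the 6242 genes passed. Sgce had a mean ratio of -0.19 and was lower in G1 in 5 of 6 samples (exact permutation p = 0.09375), while 26.7% of the 6242 genes were lower in 6 of 6. Plagl1 had a mean ratio of -0.07 (exact permutation p = 0.75), and its sign turned without young replicate 2. Ndn was higher in G1 in 5 of the 5 samples where it reached 10 CPM, Zim1 in 4 of 4 and Mest in 4 of 5 (mean ratio 0.41, with old replicate 3 at -0.25), too few for the test.

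Cells with 2 or more UMIs of Myog, the regulator of myocyte differentiation, at 5000 UMIs were taken as Myog-positive. They numbered 191, 1531 and 263 among young populations and 34, 851 and 4371 among old ones. Of these cells, 88.0%, 70.3% and 39.9% were scored G1 among young populations and 94.1%, 92.1% and 56.7% among old ones. How far they had begun to differentiate was not tested. Mest was higher in Myog-positive than in Myog-zero cells in 4 of the 5 samples where it reached 10 CPM. It was at 158 against 28.2 CPM in young replicate 2 and at 179 against 12.7 CPM in young replicate 3. In old replicate 1 it was at 176 against 15.7 CPM and in old replicate 2 at 112 against 39.3 CPM. Old replicate 3 was the exception, with 953 against 975 CPM. The exact Poisson intervals of the classes overlapped there and in none of the other 4. With 5 samples the exact permutation test cannot go below 0.0625.

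Cdkn1c was at 38.8 CPM in Myog-positive against 2.66 CPM in Myog-zero cells of young replicate 3. It was at 7.99 against 0.192 CPM in old replicate 2 and at 2.93 against 0.605 CPM in old replicate 3. In young replicate 2 it was at 1.05 against 0.0472 CPM, from 8 and 2 UMIs. The exact Poisson intervals of the classes did not overlap in these 4 samples. They treat UMIs as independent, while Cdkn1c UMIs were bunched in few cells. In young replicate 3, 1 thinned cell held 26 Cdkn1c UMIs. In old replicate 2 the cells with Cdkn1c, without thinning, numbered 0.345 of the even-spread number. Cdkn1c also stayed under the 10 CPM asked of the other genes in this contrast. In young replicate 1 and old replicate 1 no Cdkn1c UMI was found in the 191 and 34 Myog-positive cells, and the upper limits of their intervals, 3.86 and 21.7 CPM, lay above the levels of the Myog-zero cells.

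Peg3 had a mean log2 ratio of 0.83 ± 1.07 between Myog-positive and Myog-zero cells and was higher in 6 of 6 samples (SD, n = 6; exact permutation p = 0.03125). The p adjusted over 6242 genes was 0.0719, and 14.1% of the genes were higher in 6 of 6 samples. That was again the smallest adjusted p of any gene, and 0 genes passed. The ratio rested on young replicate 1 (359 against 120 CPM) and old replicate 1 (582 against 90.3 CPM), and without old replicate 1 the mean was 0.46. Myog-positive cells were more often scored G1 in all 6 samples. Within G1-scored cells, an alternative added after seeing the data, the mean was 0.61 (exact permutation p = 0.3125) and 3 samples fell below 0. Sgce was lower in Myog-positive cells in 6 of 6 samples (mean -0.87, exact permutation p = 0.03125, adjusted over 6242 genes 0.0719), as were 29.3% of the genes. Old replicate 1, with 0 Sgce UMIs in 34 Myog-positive cells, set much of that mean, which was -0.29 without it. Within G1-scored cells the mean of Sgce was -0.80 (exact permutation p = 0.0625). With cells of 1 Myog UMI added it was -0.38 (exact permutation p = 0.09375). Zim1 was higher in 3 of 4 samples, and Ndn in 2 of 5. Plagl1 had a mean of -0.31 (exact permutation p = 0.15625), and its sign turned when cells with 1 Myog UMI were added.

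**Figure D5:**
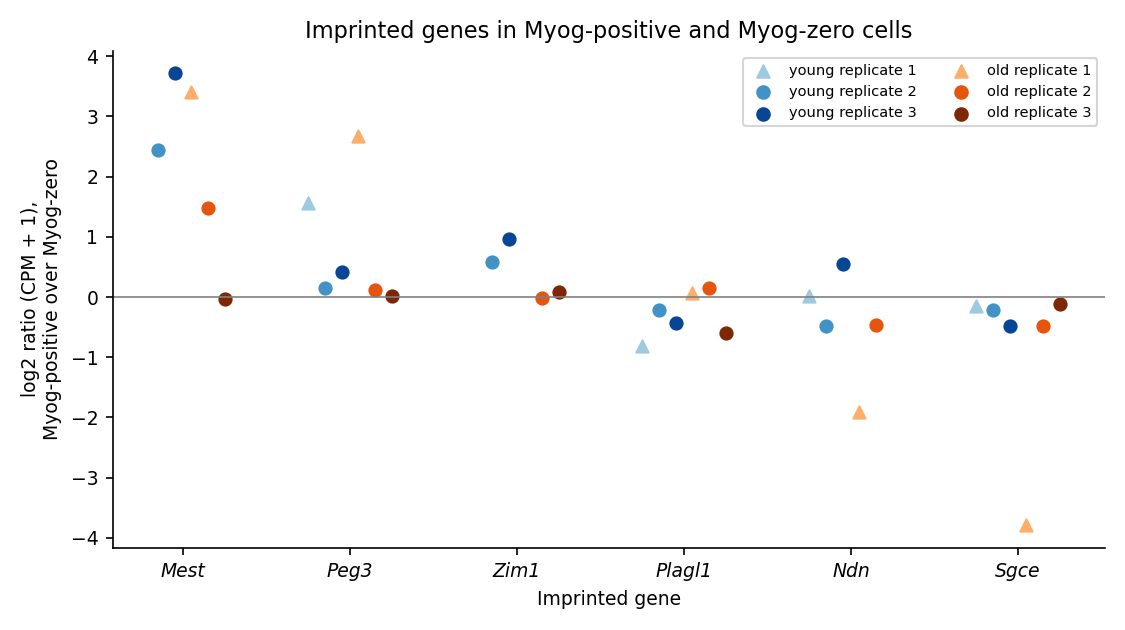
Log2 ratio of CPM + 1 between Myog-positive and Myog-zero cells (y axis) for the 6 imprinted genes that reached 10 CPM (x axis), 1 point per population where the gene reached that level. Mest lies well above 0 in 4 populations and at -0.03 in old replicate 3, and the lowest Sgce point, old replicate 1, rests on 34 cells.

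Within the populations where a pair could be computed, Mest, Plagl1, Zim1 and Sgce were weakly correlated with Peg3 across cells. Ndn was not, in the 3 samples that gave its pair with Peg3. Pearson's r of log counts across thinned cells was computed for pairs in which both genes were in at least 10% of cells, giving 12 pairs and 23 values over the samples. Of these, 17 were positive. Cells of a sample share a library, and r at these counts is limited by sampling. The highest was Mest with Peg3 in old replicate 3, at 0.34, where 79.4% of cells held both against 76.8% for independent genes. Mest with Peg3 gave 0.10 in young replicate 2 and in old replicate 2. Peg3 with Plagl1 gave 0.16, 0.06, 0.06 and 0.14 in young replicates 1, 2 and 3 and old replicate 3. Peg3 with its neighbour Zim1 gave 0.15 in young replicate 3 and 0.12 in old replicate 3, and Peg3 with Sgce gave 0.06 in young replicate 3, its only value. Among all gene pairs of a sample the median r was close to 0, at 0.0015 in young replicate 2, and the 99th percentile there was 0.0678. That percentile was 0.0591 in young replicate 3 and 0.0807 in old replicate 3. Peg3 with Plagl1 lay below it in young replicates 2 and 3, as did Peg3 with Sgce in young replicate 3. Pairs without Peg3 were mostly lower. Mest with Plagl1 gave 0.17 in old replicate 3 but 0.0018 in young replicate 2, and Mest with Zim1 gave 0.08 in old replicate 3. Plagl1 with Zim1 gave 0.0137 in young replicate 3 and 0.0289 in old replicate 3. Plagl1 with Sgce gave -0.0072 and Sgce with Zim1 0.0392 in young replicate 3. The pairs of Ndn lay between -0.03 and 0.02.

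The mean over samples of the median r of the pairs was 0.0589 (SD 0.0682), and the samples differed. Young replicate 1 (0.159) and old replicate 1 (0.0211) gave 1 pair each, and the medians were 0.00063 and -0.0015 in young replicate 2 and old replicate 2. The mean was 0.0389 without young replicate 1. It was 0.0687 in G1-scored cells only and 0.0600 in cells without a Myog UMI, but 0.0316 without thinning. Cells with and without a Mest UMI were also compared, a split chosen after values were seen. Peg3 was higher in the cells with Mest in 6 of 6 samples, against 7.18% of the 6242 genes higher and 2.74% lower in 6 of 6. In young replicate 1 the cells with Mest numbered 33, with 51 Peg3 UMIs. The split draws on the same cells and genes as the Peg3 split above, so it is not separate support. Peg3 was at 337 against 78.7 CPM in old replicate 1 and at 653 against 345 CPM in old replicate 3. In old replicate 3, the 1615 thinned cells without Mest had more Myog, at 2148 against 811 CPM, and more Igf2, at 158 against 62.7 CPM. Ndn was at 10.5 CPM in them against 0.682 CPM in the cells with Mest. Yet in that sample the cells with a Ndn UMI had less Myog than those without, at 98.0 against 996 CPM. They also had less Igf2, at 7.84 CPM (4 UMIs) against 75.9 CPM. The levels of the cells without Mest are averages and need not describe the same cells.

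The genes most like Peg3 across cells, by mean r over the 6 samples among 3919 genes, were Igfbp5 (0.37), the acetylcholine receptor gene Chrna1 (0.24) and Myod1 (0.23). The samples differed, with r from 0.264 to 0.508 for Igfbp5, from 0.0129 to 0.522 for Chrna1 and from 0.0880 to 0.438 for Myod1. For Mest, over the 3 samples where it was in at least 10% of cells, Myod1 came first at 0.20. For Plagl1 (4 samples) and Ndn (3 samples) no gene reached a mean r of 0.2. Peg3 was itself the first for Plagl1, at 0.10.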

How the data were processed

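Per the labels, single cells of 6 MDSPC cultures were profiled with 10x 3′ chemistry. The authors deposited whole-number UMI counts per gene and cell, which version 7.0.0 of Cell Ranger (shorter list) and version 7.2.0 (longer list) produced, per the file headers; the submitters' processing notes name Cell Ranger 7.2.0, Seurat 5.134 and the build mm10. The treatment of intronic reads is not given in the sources used here. Gene positions are from the GENCODE annotation of GRCm38, matched by Ensembl ID.

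Of 62849 barcodes, 61670 with at least 1000 UMIs, 500 genes and under 15% mitochondrial UMIs were kept. Scrublet marked 3 doublets, under 0.5% of cells, so it did not work and doublets remained, with 7.13% to 10.2% expected per sample. Counts were summed per sample over the genes on both lists and tested with edgeR 4.0.16 (TMM, quasi-likelihood, terms for feature list and group, Benjamini-Hochberg); the script was tested on simulated data. DESeq2 1.42.0 was an alternative. Cells were thinned to 5000 UMIs for shares, correlations and class contrasts, leaving out 539 shallower cells of the young and 829 of the old samples. Phases were scored with scanpy 1.11.5. Class contrasts used log2 of CPM + 1 and exact sign-flip tests over 6 samples; the p-values were adjusted over all 6242 genes and not, as planned, over the members. The genes named are the 10 members, preset imprinted neighbours and the nearest genes by r. The members and lists were chosen with earlier results of these data known.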

Additional observations from a re-analysis of the deposited data

Results flagged for a closer look

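Several imprinted noncoding or neighbouring genes are on the longer feature list only, so no comparison between the groups used them. They were counted above the 3 counts that a count of 0 allows in the 4 samples on that list. The imprinted RNA H19, next to Igf2, had 244645 counts, at 216 and 32.6 CPM in young replicates 2 and 3 and 279 and 805 CPM in old replicates 2 and 3. It was highest in old replicate 3, as Mest was. Airn had 42585 counts, Kcnq1ot1, from the domain of Cdkn1c and Phlda2, 25112, Zrsr1 3076, Peg13 1719 and Zim3 40.

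Of the maternally expressed RNAs beside Dlk1, Meg3 and Rian were found mostly in old replicate 3 among the 4 samples on the longer list. Meg3 had 863 counts, of which 861 were in that sample, and Rian had 1053, of which 1035 were there. Mirg had 168 counts, 117 of them in old replicate 3, 28 in young replicate 2, 22 in young replicate 3 and 1 in old replicate 2. In old replicate 3, 528 cells held Meg3, 620 held Rian and 234 held both, against 26.1 for independent genes. These numbers are over all 12541 kept cells without thinning. The number for independent genes does not allow for differences in depth between cells. Dlk1 itself had 8 counts in the same sample.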

How the results depend on the processing

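The number of genes called between old and young over the whole table was 1 with edgeR and 218 with DESeq2, 0 when the feature list was no term and 0 with the longer list alone. It ranged from 0 to 3 when each sample was left out. It was 0 without young replicate 1 and without old replicate 1, where 1 sample is left on the shorter list and the term absorbs it. The DESeq2 calls included Mest (4.11). Of 117 refitted member fold changes, 106 kept their direction and their side of the threshold. In the longer list alone Plagl1 became 0.48 and Cdkn1c -0.17. With each sample left out, values ranged from -2.25 to 0.48 for Plagl1, from -0.17 to 3.32 for Cdkn1c, from -1.13 to 1.67 for Grb10, from -0.78 to 1.41 for Ndn and from -1.54 to 0.14 for Phlda2. The replicate number, entered as a block in place of the feature list, gave 1 called gene, a Mest value of 3.58 and a Grb10 value of 0.14. The deviations of same-numbered samples correlated at 0.38, 0.22 and -0.08, so the numbers were not taken to pair the samples. All-or-none members numbered 0 with limits of 0.5 and 20 CPM and 0 over the longer list alone, and from 1 to 2 with a sample left out (1 without young replicate 1 or old replicate 1). The range of 16-fold or more held for 2 to 3 members with a sample left out, and the mean correlation of pairs was 0.0389 to 0.0710. Of all genes that reached 10 CPM with a sample left out, 4.41% to 5.05% were all-or-none and 5.99% to 7.02% had that range. Between Myog classes, 0 of the 6242 genes passed after adjustment, the smallest adjusted exact permutation p being 0.0719. Members with an unadjusted exact p under 0.05 numbered 2, at the smallest p of the design, which 2712 of those genes reached. The number went to 1 with cells of 1 Myog UMI added and to 0 in G1-scored cells, where Peg3 gave 0.61 and Sgce -0.80; Plagl1 became 0.10 with the former. Sgce gave -0.38 with the former. The Plagl1 ratio between phases ranged from -0.20 to 0.026 with a sample left out, the latter without young replicate 2. With a sample left out the exact test cannot go below 0.0625, so only values were compared. The causes were not tested. Members under about 3 counts in a sample, such as Dlk1, could not be compared at this depth.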

Other observations

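Kcnq1, a potassium channel gene 31.3 kb from Cdkn1c, had 1.89 CPM in young replicate 1 and 6.29 CPM in old replicate 1, and between 0.0383 and 0.0732 CPM in the other 4 samples. The first 2 samples are those on the shorter list, and the antisense RNA Kcnq1ot1 is on the longer list only, at 28.8 to 38.9 CPM. The feature list and the populations cannot be told apart here.

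Not all imprinted genes spread as Mest did. Gnas, which encodes the stimulatory G protein alpha subunit, averaged 1001 CPM over the 6 samples with a highest value of 1197 CPM.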
